A study of Homo sapiens with 4 samples.

Results

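The 91 genes described here encode Golgi enzymes that build and decorate sugar chains, except C1GALT1C1, a chaperone of such an enzyme. The enzymes are glycosyltransferases, which add a sugar to a growing chain, and the CHST sulfotransferases, which add sulfate to it. The genes were chosen by symbol. A gene was a member when its symbol was FUT, GALNT, B3GNT, B4GALT, B3GALT, B4GALNT, GCNT, ST3GAL, ST6GAL, ST6GALNAC, ST8SIA or CHST followed by a number, or was C1GALT1 or C1GALT1C1, and when a probe set was annotated to that gene alone. The members were read by 211 of 54675 probe sets and made up 91 of the 19775 genes read. RefSeq lists 94 genes whose symbols meet the rule. B3GALT9, GALNT4 and ST8SIA6 were not read as members because no probe set was annotated to them alone in the table used here.

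RNA from modified forms of 2 human colorectal cancer cell lines was measured on 4 Affymetrix arrays. Each modified form had 1 array, so differences between any pair of arrays carry no replicate check. The HCT116 pair, from a colon carcinoma line, is HCT116-Vec with HCT116-CDX1. The LS174T pair, from a colon line known for making mucin, is LS174T-siVec with LS174T-siCDX1. Vec and siVec were taken as vector controls, CDX1 as a form given CDX1 and siCDX1 as one in which it was reduced. How the forms were made, how many clones stand behind each and how they were grown are not stated in the labels. CDX1, an intestinal homeobox factor, had a level of 10.46 in LS174T-siVec and 9.06 in LS174T-siCDX1 on the log2 scale. In HCT116-Vec it stood at 8.21, and 8.24 was read on its partner, a difference of 0.02. Its 1 probe set therefore showed lower CDX1 in LS174T-siCDX1 but no higher CDX1 in HCT116, and directions in that pair rest on the label of the array labelled HCT116-CDX1.

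Values were log2 expression from RMA, with array medians of 7.04 to 7.06. A gene was called measured in a comparison when the brighter of its 2 arrays reached 6, and a measured gene rose or fell when the difference was at least 1 on the log2 scale, which is 2-fold. All 8 markers of colorectal epithelium were at 6 or more on every array. EPCAM, KRT8, KRT18 and KRT19 read 10.43 or more. CDH17, LGALS4 and VIL1 read only 6.19 to 7.49 on the HCT116 arrays, and CDH1 8.80 and 8.76 on the LS174T arrays. Among 14 markers of fibroblasts, leukocytes and endothelium, 4 stayed under 6 on all arrays, but CD3E, a T cell gene, read 7.76 to 8.07 and COL1A1, a fibroblast collagen, 8.86 to 9.14. A reading in this range, up to 9.14, is therefore not by itself a sign that a gene is expressed, and folds against such readings are folds of readings, not of expression. Of the 91 members, 85 reached 6 on at least 1 array and 6 did not. In RNA from whole cultures, fewer cells that express a gene and less RNA per cell cannot be told apart.

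Mucin-type O-glycans begin when a GALNT enzyme links N-acetylgalactosamine to serine or threonine. C1GALT1 with its chaperone C1GALT1C1 then forms core 1, GCNT1, GCNT3 and GCNT4 branch it into core 2, and B3GNT6 forms core 3, the core typical of normal colon. B3GNT, B4GALT and B3GALT enzymes lengthen the chains, and fucosyltransferases, sialyltransferases and sulfotransferases cap them. FUT1 and FUT2 make the H antigen, FUT3 the Lewis antigens, and ST6GALNAC1 the sialyl-Tn antigen. These structures coat the mucins of the intestinal surface and are often altered in colorectal cancer.

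The promoters of FUT2, FUT3, GCNT1 and GCNT3 are shown because these 4 genes mark the group. Each window runs from 250 bases before to 50 bases after the start of the gene, 5′ to 3′ on the gene's strand, from RefSeq on GRCh38.p14. Capitals mark TTTAT or its reverse complement ATAAA, the core letters of sites bound by CDX proteins, and the rest is in lower case.
FUT2 promoter, chr19:48695721-48696020, plus strand: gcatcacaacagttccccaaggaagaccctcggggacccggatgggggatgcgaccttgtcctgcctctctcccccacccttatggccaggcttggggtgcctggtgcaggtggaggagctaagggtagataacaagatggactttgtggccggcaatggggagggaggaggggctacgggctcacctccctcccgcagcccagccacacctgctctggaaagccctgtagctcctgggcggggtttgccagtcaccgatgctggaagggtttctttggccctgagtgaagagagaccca
FUT3 promoter, chr19:5851400-5851699, minus strand: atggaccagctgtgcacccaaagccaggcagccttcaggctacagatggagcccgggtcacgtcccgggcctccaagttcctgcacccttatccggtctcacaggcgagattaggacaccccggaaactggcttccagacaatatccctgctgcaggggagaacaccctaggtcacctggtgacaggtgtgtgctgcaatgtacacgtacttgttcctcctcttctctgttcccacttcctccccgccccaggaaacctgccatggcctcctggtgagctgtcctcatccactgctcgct
GCNT1 promoter, chr9:76393619-76393918, plus strand: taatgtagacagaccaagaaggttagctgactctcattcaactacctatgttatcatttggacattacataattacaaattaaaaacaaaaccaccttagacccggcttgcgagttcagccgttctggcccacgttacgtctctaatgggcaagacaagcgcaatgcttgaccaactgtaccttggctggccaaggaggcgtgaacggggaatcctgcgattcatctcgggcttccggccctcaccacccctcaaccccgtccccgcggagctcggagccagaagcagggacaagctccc
GCNT3 promoter, chr15:59611533-59611832, plus strand: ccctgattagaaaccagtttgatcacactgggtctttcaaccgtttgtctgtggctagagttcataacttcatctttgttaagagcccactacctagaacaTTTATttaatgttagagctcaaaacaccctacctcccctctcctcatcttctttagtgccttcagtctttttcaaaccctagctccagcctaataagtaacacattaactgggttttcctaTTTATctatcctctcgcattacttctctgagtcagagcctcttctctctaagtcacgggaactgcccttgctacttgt
The GCNT3 window held TTTAT in 2 places, starting at positions -149 and -28 relative to the gene's start, and the windows of FUT2, FUT3 and GCNT1 held neither strand of it. Promoters were found for 70 of the 91 members, of which 12 (17.1%) held TTTAT on either strand, beside 35.8% of 27305 promoters of the same length. The longer form TTTATTG, which contains TTTAT, was in 0 of the 70 windows and in 4.12% of all promoters. The median GC content was 68.7% in the members' windows and 58.3% in all promoters, and its part in these shares was not tested. A match is only a match of letters, and no match says only that the letters are not in this window.

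On the array labelled HCT116-CDX1, FUT1 and GCNT3 were the members that rose and 0 fell. The fucosyltransferase FUT1, which makes the H antigen, rose 2.34-fold, and GCNT3, the mucin-type core 2 enzyme, rose 2.12-fold. Both GCNT3 readings and the lower FUT1 reading lie within the range of the markers of other cell types, so these folds are of readings. Of 83 measured members, 2 rose (2.41% changed), beside 1.89% of all 16914 measured genes, of which 0.916% rose and 0.97% fell. The share of members is near that of all genes. The median difference over all 91 members was 0.03, beside 0 over all 19775 genes, and 49 members lay above 0.

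In LS174T-siCDX1, FUT3, FUT2 and GCNT1 fell and 0 members rose. FUT3, the Lewis enzyme, fell 2.27-fold, FUT2, the secretor enzyme, 2.19-fold, and GCNT1, the widely expressed core 2 enzyme, 2.18-fold. Both GCNT1 readings and the lower readings of FUT2 and FUT3 lie within the range of the markers of other cell types. These folds are therefore of readings. The 3 falls were 3.61% of 83 measured members, beside 1.85% of 16896 measured genes changed, of which 1.25% fell and 0.598% rose. Smaller differences also lay mostly below 0: 61 of all 91 members (67%), beside 49.8% of all genes, with medians of -0.08 and 0. Markers of colorectal epithelium moved alongside: 3 of 8 fell in this pair (KRT19, LGALS4 and KRT8), 0 rose, and their median was -0.94. KRT20, a keratin of differentiated intestinal cells, read 8.15 and 5.45 here, and 6.36 and 9.38 in the HCT116 pair. Their part in the members' differences was not tested. Without probe sets marked as shared between transcripts, GCNT1 was the member that fell, because FUT2 and FUT3 have only such probe sets.

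Between the control arrays the members differed more. In LS174T-siVec, 9 members were at least 2-fold higher than in HCT116-Vec and 11 were at least 2-fold lower, of 84 measured. That is 23.8%, beside 13.4% of 17043 measured genes, of which 6.03% were higher and 7.33% lower. ST6GALNAC1, GCNT3 and FUT3 were far higher in LS174T-siVec, and GALNT12, CHST15 and GALNT18 far higher in HCT116-Vec. This comparison shares the array HCT116-Vec with the HCT116 pair and LS174T-siVec with the LS174T pair, so its values are not a separate reading from theirs.

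**Figure D1:**
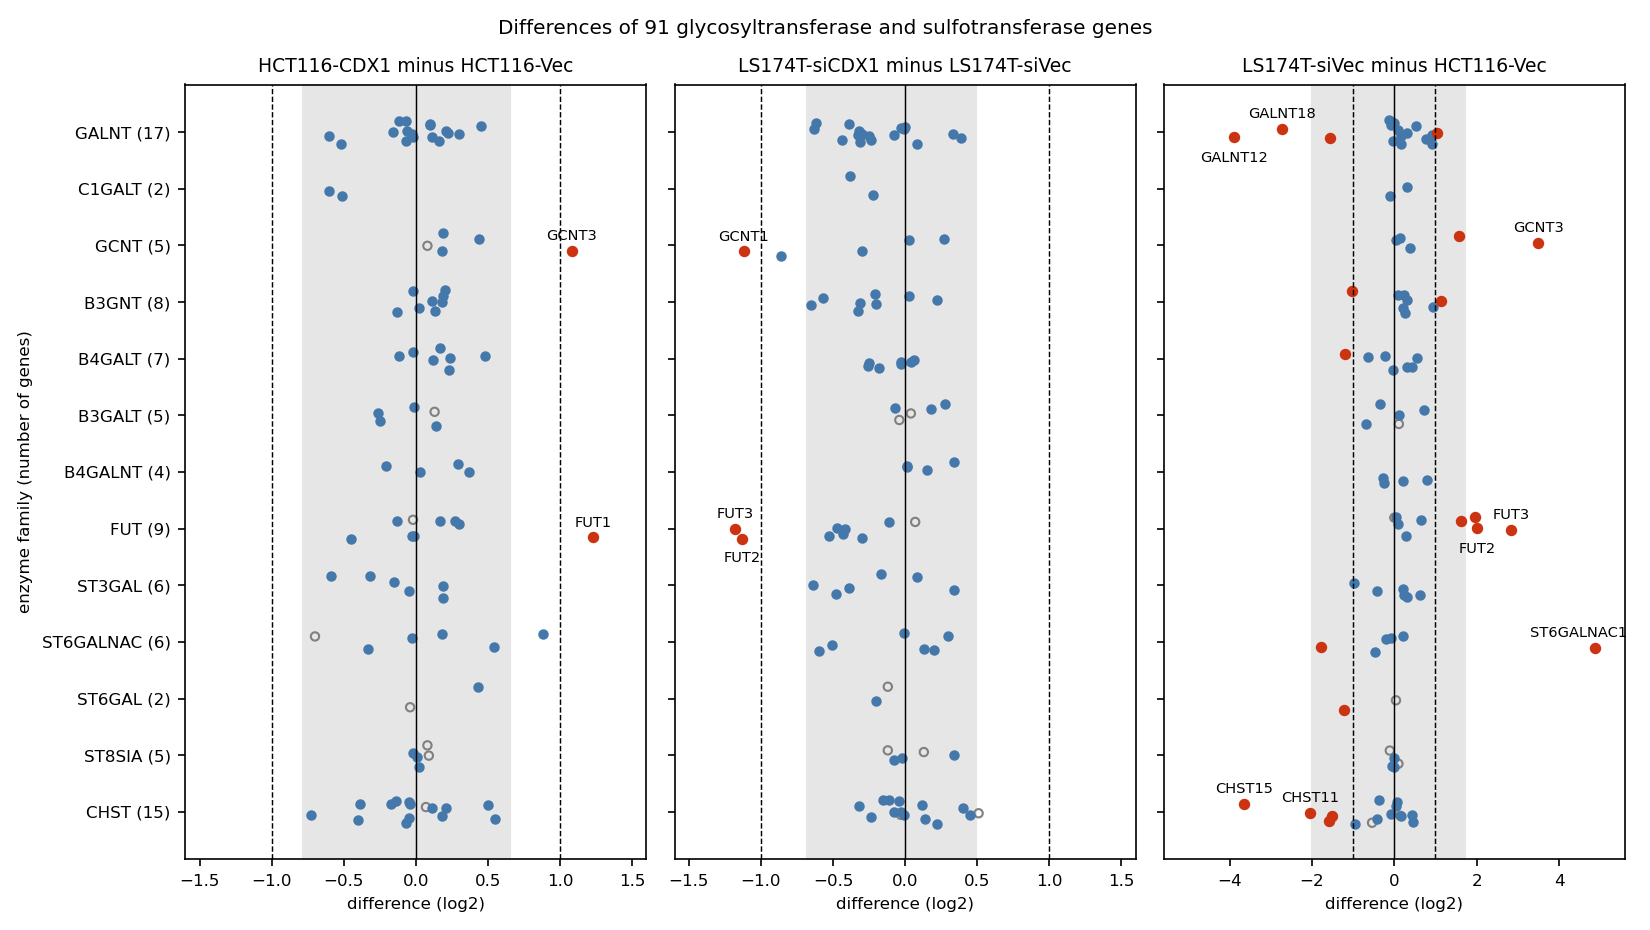
Difference of each of the 91 members (horizontal axis, log2) by enzyme family, in 3 panels for the 3 comparisons of 2 arrays; the right panel has a wider axis. Red points are measured and at least 2-fold different, blue points measured and under 2-fold, open points under 6 on both arrays, the grey band the central 95% of all measured genes, and dashed lines 2-fold. FUT1 and GCNT3 lie past 2-fold in the left panel, FUT2, FUT3 and GCNT1 in the middle one, and 20 members in the right one.

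The GALNT family, which starts O-glycans, had 17 members, all measured in each comparison. In the LS174T pair 14 of 17 lay below 0, with a median of -0.25, and in the HCT116 pair 9 of 17 did, with a median of -0.02. No GALNT gene rose or fell within a pair as read from its brightest probe set. GALNT5 read 9.31 in HCT116-Vec, 8.71 on the array labelled HCT116-CDX1, 9.46 in LS174T-siVec and 8.83 in LS174T-siCDX1, lower on both modified arrays. Its differences were -0.60 and -0.63, and its 4 measured probe sets ran from -0.73 to -0.49 in the HCT116 pair and from -1.81 to -0.48 in the LS174T pair. All of them had the same sign, and 2 of the 4 differed at least 2-fold in LS174T, although the one used for the gene did not. GALNT3 went from 10.01 to 9.39 in the LS174T pair and GALNT1 from 11.56 to 11.12, differences of -0.62 and -0.44.

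GALNT genes separated the lines in both directions. GALNT12, an initiator expressed in the digestive tract, read 9.80 and 9.69 on the HCT116 arrays and 5.90 and 6.30 on the LS174T arrays. It was 14.9-fold lower in LS174T-siVec as read, and at least 14.0-fold lower against a level of 6, since 5.90 is no clear signal. Its other probe set differed by -4.49. GALNT18 read 9.04 and 8.52 in HCT116 and 6.31 and 6.28 in LS174T, 6.61-fold lower in LS174T-siVec, but its other measured probe set differed by 0.09. GALNT14 read 8.32 and 8.62 in HCT116 and 6.76 and 6.45 in LS174T, 2.95-fold lower. GALNT6 was the GALNT member at least 2-fold higher in LS174T-siVec, at 9.12 against 8.08 (2.05-fold). It was just under 2-fold after quantile normalization, at 0.98. These readings of GALNT18, GALNT14 and GALNT6 lie within the range of the markers of other cell types. Their folds are therefore of readings.

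C1GALT1 and its chaperone C1GALT1C1 lay below 0 in both pairs on their brightest probe sets, and neither rose nor fell. C1GALT1 read 8.53 and 7.92 in the HCT116 pair and 8.41 and 8.03 in the LS174T pair. C1GALT1C1 read 9.05 and 8.54, and 9.37 and 9.15. The other 2 probe sets of C1GALT1 differed less in the HCT116 pair, by 0.05 and -0.22. The other probe set of C1GALT1C1 went the opposite way in the LS174T pair, from 6.12 to 6.59, a difference of 0.46.

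Of 5 GCNT genes, the branching enzymes, GCNT3 rose in the HCT116 pair and GCNT1 fell in the LS174T pair. GCNT3 read 7.41 in HCT116-Vec, 8.50 on the array labelled HCT116-CDX1, 10.90 in LS174T-siVec and 10.61 in LS174T-siCDX1. Both LS174T arrays were above both HCT116 arrays, and GCNT3 was 11.2-fold higher in LS174T-siVec than in HCT116-Vec. Within LS174T it differed by -0.30, under 2-fold. GCNT1 read 8.18 and 8.35 in HCT116, 8.57 in LS174T-siVec and 7.44 in LS174T-siCDX1, the lowest of the 4. Its 2 probe sets differed by -1.12 and -1.19 in the LS174T pair, and by 0.18 and -0.21 in the HCT116 pair. These GCNT1 readings, and those of GCNT3 in HCT116, lie within the range of the markers of other cell types.

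GCNT2, which makes the branched I antigen, read 6.04 and 6.49 in the HCT116 pair and 6.18 and 5.32 in the LS174T pair, close to the level of no clear signal. It differed by 0.44 in the HCT116 pair. In the LS174T pair it differed by -0.86 as read, but by -0.18 against a level of 6, since 5.32 is no clear signal. GCNT4, another core 2 enzyme, read 5.85 and 5.92 in HCT116 and 7.43 and 7.70 in LS174T. It was 3.0-fold higher in LS174T-siVec as read and at least 2.7-fold against a level of 6. Its LS174T readings lie within the range of the markers of other cell types. GCNT7 differed by 0.19, 0.03 and 0.04 in the 3 comparisons.

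**Figure D2:**
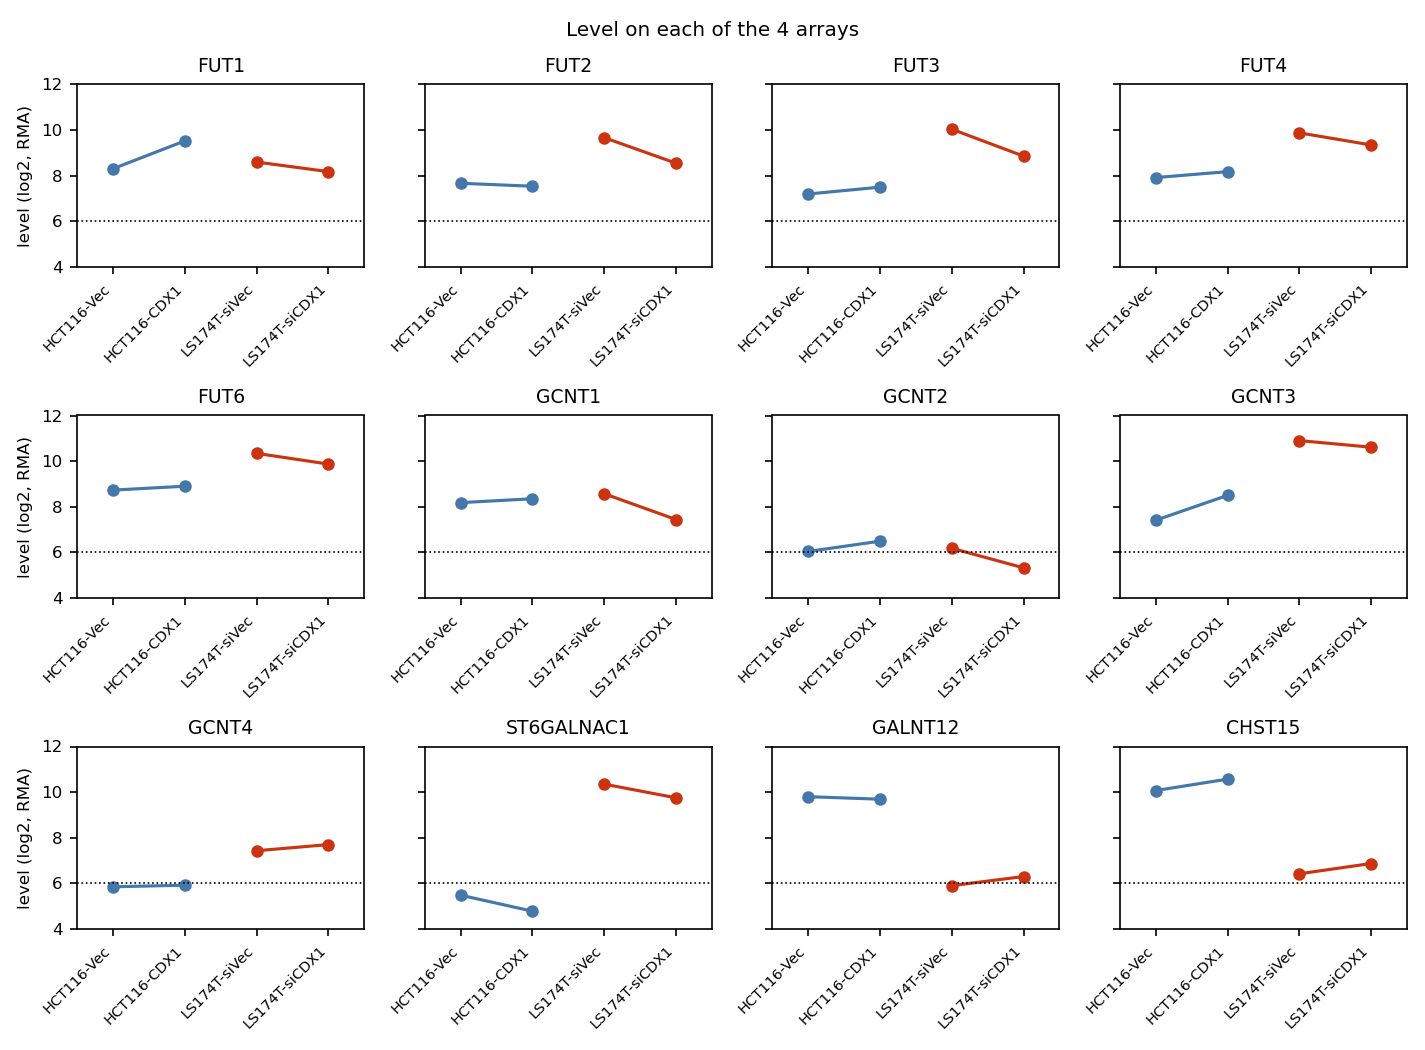
Level (vertical axis, log2 RMA) of 12 members on each of the 4 arrays (horizontal axis), with a line joining the 2 arrays of a pair, HCT116 in blue and LS174T in red; the dotted line is the level of 6. FUT1 and GCNT3 step up in HCT116, and FUT2, FUT3 and GCNT1 step down in LS174T, while ST6GALNAC1, GALNT12 and CHST15 differ between the lines.

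The chain-lengthening families changed little within the pairs. None of the 8 B3GNT, 7 B4GALT, 5 B3GALT and 4 B4GALNT genes rose or fell in either pair. In LS174T-siCDX1, 6 of 8 B3GNT genes lay below 0, with a median of -0.26. B3GNT3, which extends core 1, read 9.38 in LS174T-siVec and 8.74 in LS174T-siCDX1, a difference of -0.65, and B3GNT5, which starts the lacto-series glycolipids, 10.41 and 9.84, a difference of -0.57. The core 3 enzyme B3GNT6 read between 6.63 and 6.94 on all 4 arrays. B4GALT1, a galactosyltransferase of most tissues, read 9.03 and 9.51 in the HCT116 pair, a difference of 0.48. Its 4 probe sets with a level of 6 or more lay between 0.23 and 0.90 there, and between -0.16 and 0.04 in the LS174T pair.

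Between the control arrays, B3GNT8 was 2.20-fold higher in LS174T-siVec, at 7.65 against 6.52. B4GALT5, a lactosylceramide synthase, was 2.28-fold lower, at 10.47 against 11.66, and its other probe set differed by -0.68. B3GNT7 was 2.02-fold lower, at 6.14 against 7.16, but its 4 measured probe sets ran from -1.08 to 0.06. These readings of B3GNT8 and B3GNT7 lie within the range of the markers of other cell types. Among the B3GALT genes the differences ran from -0.68 for B3GALT5, which makes type 1 chains, to 0.72 for B3GALT6, which acts on the linkage region of proteoglycans. B4GALNT4 differed by 0.80 and the remaining B4GALNT genes by -0.28 to 0.20.

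Of 8 measured fucosyltransferases, 1 rose in the HCT116 pair, where 0.916% of all measured genes rose, and 2 fell in the LS174T pair, where 1.25% fell. These counts are small, and the 2 that fell, FUT2 and FUT3, have only probe sets marked as shared between transcripts. FUT1 read 8.31 in HCT116-Vec, 9.53 on the array labelled HCT116-CDX1, 8.60 in LS174T-siVec and 8.18 in LS174T-siCDX1. The array labelled HCT116-CDX1 was the highest of the 4, and in the LS174T pair FUT1 differed by -0.42. It was read by 1 probe set. FUT2 read 7.67 and 7.54 in HCT116, 9.67 in LS174T-siVec and 8.55 in LS174T-siCDX1. Its second probe set differed by -0.57 in the LS174T pair, and the mean of both was -0.85, under 2-fold. FUT3 read 7.20 and 7.50 in HCT116, 10.04 in LS174T-siVec and 8.86 in LS174T-siCDX1. Its second probe set differed by -1.46. Reduced levels of FUT2 and FUT3 in LS174T-siCDX1 still lay above both HCT116 arrays.

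None of the other fucosyltransferases rose or fell in the LS174T pair. There 8 of 9 FUT genes lay below 0, with a median of -0.43, the lowest median of the 13 families; FUT9, under 6 on all arrays, was at 0.07. FUT4, which makes Lewis x structures, read 9.88 and 9.35, a difference of -0.53. FUT8, the core fucosyltransferase of N-glycans, read 10.17 and 9.74, and in the HCT116 pair 9.51 and 9.07. FUT6, which makes sialyl Lewis x, read 10.34 and 9.87. Of its 8 probe sets, 1 differed by -1.13 and those with unshared names by 0.14 and 0 in the LS174T pair. FUT3, FUT5 and FUT6 are close in sequence, and every probe set that read FUT3 or gave a large difference for FUT6 carries a name that marks possible sharing, so their readings are uncertain as separate genes.

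Of the 9 FUT genes, 4 were at least 2-fold higher in LS174T-siVec than in HCT116-Vec: FUT3 (7.18-fold), FUT2 (4.02-fold), FUT4 (3.90-fold) and FUT6 (3.05-fold). The sizes depend on the probe set. FUT3 differed by 2.84 on the probe set used and by 4.64 on the other, FUT2 by 2.01 and 1.03, and FUT4 by 1.96 and 1.47. The 8 probe sets of FUT6 ran from 0.09 to 3.76. FUT1, FUT5, FUT7 and FUT9 differed by 0.29, 0.04, 0.09 and 0, and FUT8 by 0.65. No FUT gene was at least 2-fold lower. Of all measured genes 6.03% were at least 2-fold higher between these arrays and 7.33% lower. The brightest FUT6 probe set with an unshared name differed by 0.28, while FUT4, at 9.88 against 7.92, was read by a probe set with an unshared name.

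**Figure D3:**
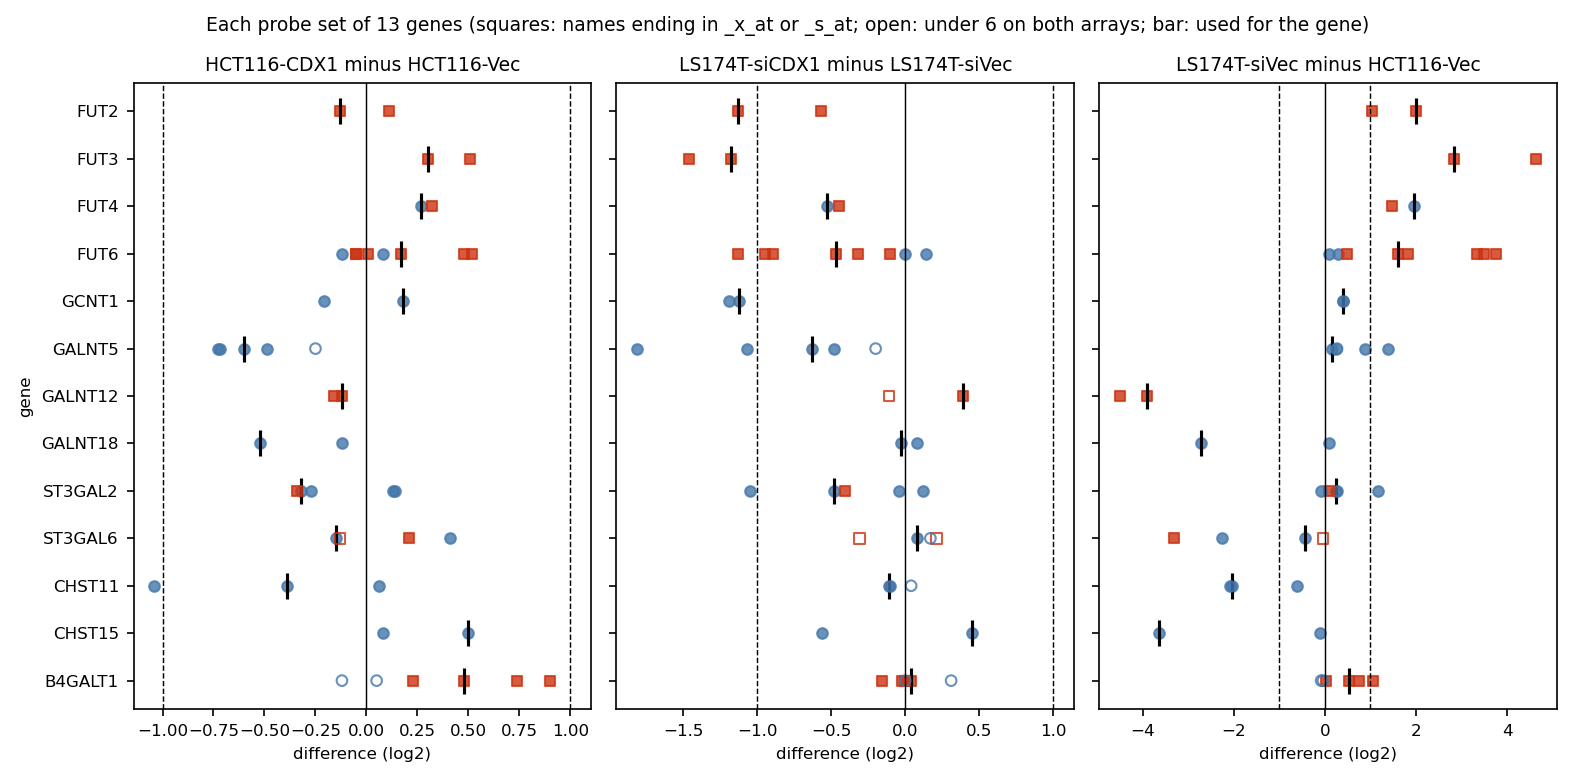
Difference (horizontal axis, log2) of each probe set of 13 members in the 3 comparisons. Squares are probe sets with names that mark sharing between transcripts, circles the others, open symbols are under 6 on both arrays, and a vertical bar marks the probe set used for the gene. Both probe sets of GCNT1 and of FUT3 lie past -1 in the middle panel, while those of FUT6, ST3GAL6 and GALNT18 spread widely in the right panel.

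Sialyltransferases did not rise or fall within the pairs. ST3GAL1, which caps core 1 with sialic acid, read 8.26 and 7.67 in the HCT116 pair and 8.57 and 7.93 in the LS174T pair, lower on both modified arrays. It differed by -0.59 and -0.64, and its other 2 probe sets differed less, by -0.19 and -0.21 in the HCT116 pair and by -0.31 and -0.10 in the LS174T pair. ST3GAL2 read 8.50 and 8.01 in the LS174T pair, and 1 of its probe sets differed by -1.05 there and another by 0.12. ST6GALNAC2, which sialylates core 1 structures, read 9.33 and 10.21 in the HCT116 pair, 0.88 apart and under 2-fold, and 7.55 and 7.85 in the LS174T pair. The 5 ST8SIA genes, which build chains of sialic acid, ran from -0.12 to 0.34 over both pairs, and 2 of them, ST8SIA1 and ST8SIA2, stayed under 6 on all arrays.

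The widest gap between the lines was in ST6GALNAC1, the sialyl-Tn synthase. It read 5.48 and 4.78 on the HCT116 arrays, no clear signal, and 10.35 and 9.75 on the LS174T arrays. It was 29.2-fold higher in LS174T-siVec as read, and at least 20.3-fold against a level of 6. Within LS174T it differed by -0.60. ST6GALNAC2 was 3.44-fold lower in LS174T-siVec, and ST6GAL1, which sialylates N-glycans, 2.31-fold lower, at 8.05 against 9.26. For ST3GAL6 the probe set used differed by -0.43 between the control arrays, but 2 others differed by -3.30 and -2.26, from 7.07 to 3.77 and from 6.33 to 4.06. The reading of ST3GAL6 therefore depends on the probe set.

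Of 15 sulfotransferase genes, none rose or fell within a pair, and 4 were at least 2-fold lower in LS174T-siVec than in HCT116-Vec. Of all measured genes 7.33% were. CHST15, which adds a second sulfate to chondroitin sulfate, read 10.07 and 10.57 on the HCT116 arrays and 6.42 and 6.87 on the LS174T arrays, and was 12.5-fold lower in LS174T-siVec as read. The readings of 6.42 and 6.87 lie within the range of the markers of other cell types, so the fold is one of readings. Its dimmer probe set differed by -0.10. CHST11, a chondroitin sulfotransferase, read 8.29 and 7.91 in HCT116 and 6.26 and 6.15 in LS174T, 4.10-fold lower, with its other probe sets at -2.07 and -0.60. CHST7, also of chondroitin sulfate, read 8.39 and 7.65 in HCT116 and 6.81 and 6.57 in LS174T, 3.0-fold lower. CHST6, a keratan sulfate enzyme, was at 7.82 and 7.42, and 6.31 and 6.17, 2.84-fold lower. All these readings of CHST11, CHST7 and CHST6 lie within the same range, so their folds too are of readings. On the array labelled HCT116-CDX1, CHST7 differed by -0.73 and 1 probe set of CHST11 by -1.04, from 7.98 to 6.94, while the probe set used for CHST11 differed by -0.39. CHST5, the intestinal N-acetylglucosamine sulfotransferase, read 7.38 to 7.46 on all 4 arrays.

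The 2 pairs share no array and were set side by side. No member was 0.5 or more higher on the array labelled HCT116-CDX1 and 0.5 or more lower in LS174T-siCDX1, or the reverse, among 81 measured in both; of all 16530 genes 0.587% and 0.278% were. By sign alone, 31 of the 81 members (38.3%) lay above 0 in the HCT116 pair and below 0 in the LS174T pair, beside 23.5% of all genes. Among them were FUT1 at 1.23 and -0.42, GCNT3 at 1.08 and -0.30, FUT3 at 0.30 and -1.18, and GALNT2 at 0.45 and -0.30. FUT2 and GCNT1, which fell in LS174T, differed by -0.13 and 0.18 in HCT116. GALNT5 and ST3GAL1 lay 0.5 or more lower on both modified arrays (2.47% of the members, beside 0.417% of all genes).

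**Figure D4:**
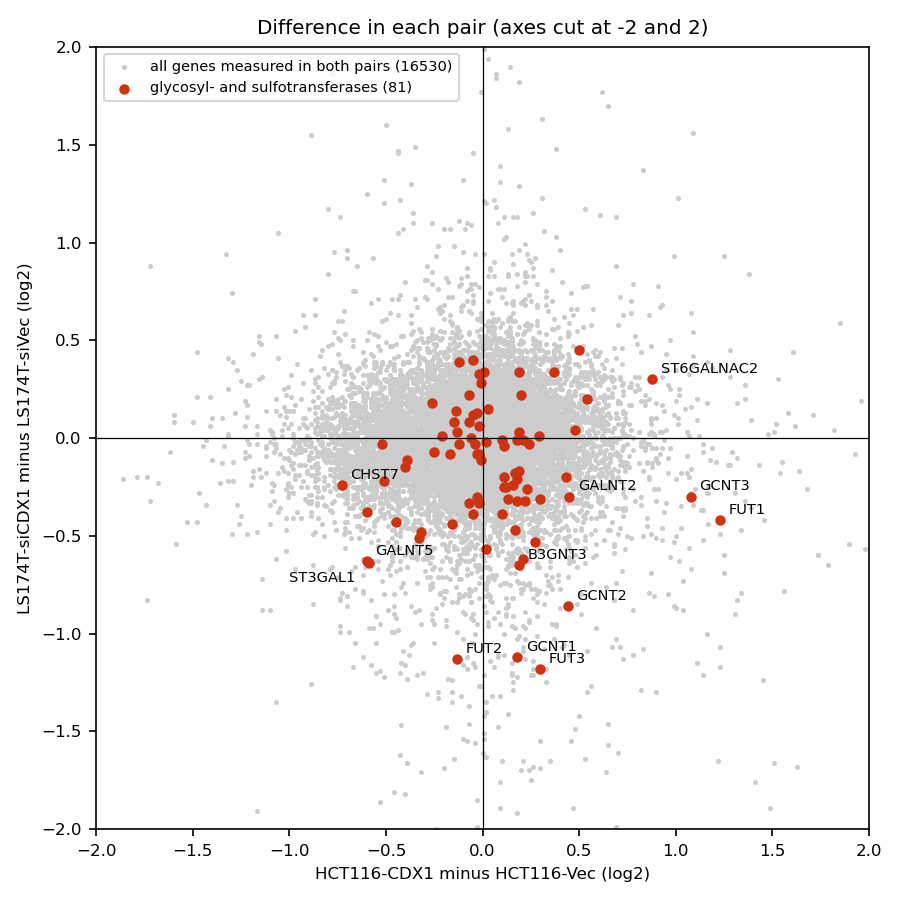
Difference in the HCT116 pair (horizontal axis, log2) against the difference in the LS174T pair (vertical axis, log2), for 16530 genes measured in both (grey) and 81 members among them (red); genes beyond 2 on either axis are outside the frame. FUT1 and GCNT3 lie to the right, FUT2, GCNT1 and FUT3 at the bottom, and GALNT5 with ST3GAL1 at the lower left.

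All 4 arrays were also fitted together with limma, on 17280 genes, in a model of the CDX1 label plus the cell line that leaves 1 residual degree of freedom. The label term contrasts HCT116-CDX1 and LS174T-siVec with HCT116-Vec and LS174T-siCDX1, so it joins 2 different manipulations. For this term 0 of 85 members had a limma adjusted p under 0.05, as did 0% of all genes, and the smallest adjusted p among members was 0.999. At an unadjusted p under 0.05 there were 4 members: FUT1 at 0.83 ± 0.24 (SE), FUT3 at 0.74 ± 0.25, GCNT3 at 0.69 ± 0.24 and GCNT2 at 0.65 ± 0.18, which rests on its reading of 5.32. Of all 17280 genes 518 passed unadjusted.

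For the cell line, 25 of 85 members (29.4%) had a limma adjusted p under 0.05, beside 16.1% of all genes, with 12 higher in LS174T and 13 higher in HCT116. Higher in LS174T were ST6GALNAC1 by 4.92 ± 0.34 (SE), with mean levels of 10.05 and 5.13, GCNT3 by 2.80 ± 0.24, and FUT3 by 2.10 ± 0.25. Lower in LS174T were CHST15 at -3.67 ± 0.27, GALNT12 at -3.65 ± 0.16, GALNT18 at -2.48 ± 0.20, ST6GALNAC2 at -2.07 ± 0.32, CHST11 at -1.90 ± 0.19 and GALNT14 at -1.87 ± 0.15. The limma adjusted p was 0.00124 for GALNT12, 0.00341 for ST6GALNAC1, 0.00388 for CHST15, 0.00532 for GCNT3 and 0.0125 for FUT3. GCNT4 at 1.68 ± 0.17 completes the 10 largest. The HCT116 means of ST6GALNAC1 and GCNT4, 5.13 and 5.88, lie under 6, so the sizes of these differences are as read. FUT2, at 1.51 ± 0.33, had an adjusted p of 0.0504. The arrays of a line were not repeats of the same culture. Differences within the pairs that follow the label are taken up by the label term. The spread left for this test is that of differences shared by both modified arrays, not one of repeats. With the cell line as the only term and LS174T-siVec left out, 15 members passed, and ST6GALNAC2 had an adjusted p of 0.0588. With HCT116-Vec or HCT116-CDX1 left out, FUT3 had an adjusted p of 0.085 or 0.0693.

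**Figure D5:**
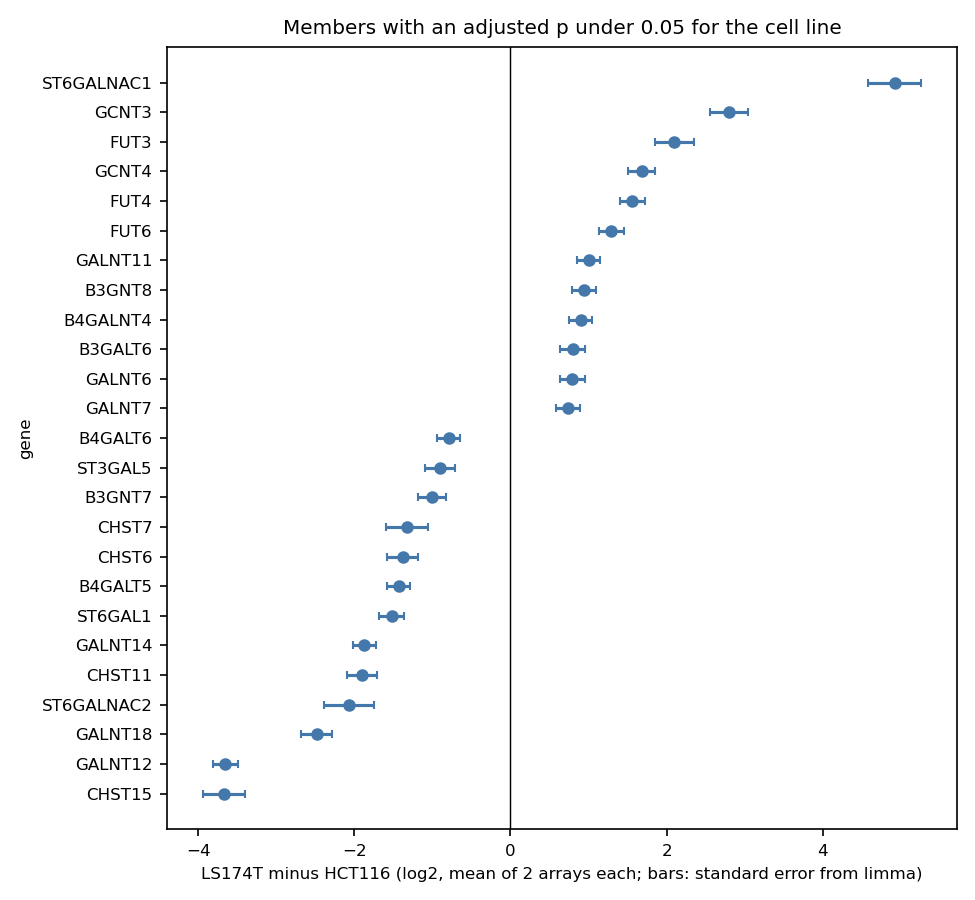
Difference between the cell lines (horizontal axis, LS174T minus HCT116, log2, 2 arrays each) from limma for the 25 members with an adjusted p under 0.05, with bars of 1 standard error. They run from -3.67 for CHST15 to 4.92 for ST6GALNAC1.

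Other genes of the same pathway were read from lists of known genes. Among 19 genes that make nucleotide sugars and the sulfate donor, PAPSS2, a synthase of that donor, rose from 10.99 to 12.16 in the HCT116 pair. In the LS174T pair it went from 12.65 to 11.65 and was the gene of the list that fell. GMDS, the first enzyme of GDP-fucose synthesis, fell from 9.54 to 8.02 in the HCT116 pair, where FUT1 rose. In LS174T-siVec 6 of the 19 were at least 2-fold higher than in HCT116-Vec and 0 lower, led by GMDS at 1.82, UAP1L1 at 1.79 and PAPSS2 at 1.66. Between these arrays 6.03% of all measured genes were higher and 7.33% lower. Of 12 Golgi transporters of nucleotide sugars and the sulfate donor, 0 changed in either pair, with medians of -0.13 in the HCT116 pair and -0.22 in the LS174T pair. Between the control arrays 3 were higher in LS174T-siVec: SLC35A3 at 1.38, SLC35D1 at 1.23 and SLC35A4 at 1.13.

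Golgi enzymes outside the rule and enzymes of glycan breakdown had 0 changes within the pairs. Of 28 further Golgi enzymes, 3 were higher and 2 lower in LS174T-siVec. Of all measured genes 6.03% were at least 2-fold higher between the control arrays and 7.33% lower. MAN1A1, a mannosidase of N-glycan trimming, read 10.61 in HCT116-Vec and 5.50 in LS174T-siVec, a difference of -5.12. B3GALNT1, the globoside synthase, differed by -3.18, from 8.26 to 5.08, and MGAT4A by 2.43, from 7.88 to 10.31. The LS174T-siVec readings of MAN1A1 and B3GALNT1, 5.50 and 5.08, are no clear signal, so their differences are as read. Of 11 genes of glycan breakdown, NEU1, the lysosomal sialidase, at 2.13, and HEXA at 1.15 were higher in LS174T-siVec. Among 12 mucin genes, the proteins that carry O-glycans, MUC2 at -1.37, MUC6 at -1.05 and MUC13 at -1.03 fell in LS174T-siCDX1. Of all measured genes 1.25% fell there. Both MUC2 readings of this pair, 9.09 and 7.73, lie within the range of the markers of other cell types. None of the mucin genes changed in the HCT116 pair. The same 3 were higher in LS174T-siVec than in HCT116-Vec, by 1.51, 5.42 and 3.2, and 0 were lower. For MUC6 the HCT116-Vec reading was 5.81, no clear signal. That comparison shares LS174T-siVec with the LS174T pair.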

How the data were processed

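The values the authors deposited are log2 expression of 54675 probe sets, made with RMA per the submitters' processing notes, and were used unchanged. Neither the RMA version nor which arrays were normalized together is given in the sources used here. Genes were assigned through GEO's platform annotation (41097 with 1 gene, 1801 with several, 11777 with none listed), and symbols were checked against RefSeq genes of GRCh38.p14 (41043 matched, 0 changed). Each gene took the values of its brightest probe set by the mean of all 4 arrays; 65 members had several probe sets. With 1 array per group, comparisons of 2 arrays have no test, and their number limits the precision. Limma 3.58.1 in R 4.3.3 was fitted to genes reaching 6 on any array, with Benjamini-Hochberg adjustment over all 17280, and tested on simulated data. Python 3.11.15, pandas 2.3.3 and statsmodels 0.14.6 did the rest.

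Members, lists and rules were chosen with earlier results of these data known. Named by rule were CDX1, FUT2, FUT3, GCNT1 and GCNT3, members past 2-fold, the largest difference of each family, the 10 largest for the cell line, members past 0.5 in both pairs, members with disagreeing probe sets, and up to 3 genes per list and comparison. Members and marker genes named beyond this were chosen after their values were seen. Alternatives were no floor, a floor of 7, levels under 6 set to 6, thresholds of 1.5-fold and 3-fold, the mean of the probe sets, no shared probe sets (names ending in _x_at or _s_at), quantile normalization, a loess on the mean level (span 0.3), and for limma also an intensity trend, 1 term alone and each array left out.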

Additional observations from a re-analysis of the deposited data

Results flagged for a closer look

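GALNT5 and ST3GAL1 were singled out because both were lower on the array labelled HCT116-CDX1 and lower in LS174T-siCDX1. By the labels these are opposite changes of CDX1, but CDX1 itself differed by only 0.02 in the HCT116 pair. GALNT5 differed by -0.60 in the HCT116 pair and by -0.63 in the LS174T pair. ST3GAL1 differed by -0.59 and -0.64. The other probe sets of ST3GAL1 differed less, by -0.19 and -0.21 in the HCT116 pair and by -0.31 and -0.10 in the LS174T pair. Whether the pairs differ from each other was not tested, each value comes from 1 array against 1 array, and none of the 4 values reached 2-fold.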

How the results depend on the processing

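At 1.5-fold, 7 members differed in the HCT116 pair (3 higher, 4 lower) and 9 in the LS174T pair (all lower). Between the control arrays 32 did (17 higher, 15 lower). At 3-fold the counts were 0, 0 and 11. Shares of all genes at these thresholds were not computed, so the counts have no background beside them. Without shared probe sets 1 member fell in the LS174T pair, since FUT2 and FUT3 then have no probe set. The other settings kept the counts within 1.5 times: 2 in each for HCT116, 2 to 3 for LS174T, and 16 to 20 between the control arrays. The limma count for the cell line was 21 to 28 over the settings with all 4 arrays, and 15 to 25 with each array left out in turn, where only the cell line was a term because both terms leave no residual degree of freedom. The limma count for the CDX1 label was 0 in all settings, with 0 to 5 members at an unadjusted p under 0.05. No called difference of a member changed sign. As the mean of the probe sets FUT2 in the LS174T pair, and B3GNT7, B4GALT5 and ST6GAL1 between the control arrays, dropped under 2-fold, at -0.85, -0.51, -0.93 and -0.70, and ST3GAL6 passed it at -1.51. With 1 array per group there were no replicates to match within a pair. In the limma fit the cell line term sets each modified array beside the control of its own line. Readings under 6, those of HCT116 for ST6GALNAC1 among them, give bounds only.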

Other observations

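Probe sets annotated to several genes were left out of the members. GALNT4, which shares its probe sets with the POC1B-GALNT4 readthrough in the annotation, read 7.97, 7.82, 8.41 and 8.06 on the brighter of 2 probe sets (the HCT116 pair, then the LS174T pair, each with its control first). On the dimmer one it read 6.97, 7.05, 7.76 and 7.67. A probe set annotated to GALNT8 and KCNA6 read 7.17 to 7.46.

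LYZ, the lysozyme gene of the leukocyte list, read 4.97 and 5.21 on the HCT116 arrays and 11.25 and 11.74 on the LS174T arrays. PTPRC, the general leukocyte gene, read 6.51 to 6.85 on all 4. The part of other cell types in the differences of the members was not tested.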
